A study of Mus musculus with 12 samples.

Results

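Gene expression 24 h after high intensity focused ultrasound (HIFU) was compared with that of untreated tumors in a mouse model of neuroblastoma, a tumor of the sympathetic nervous lineage. The comparison used 6 of the 12 arrays of the series, chosen by their titles: 3 control tumors with no treatment and 3 tumors labelled HIFU at 24 h. All tumors arose from neuroblastoma cells inoculated into A/J mice, an inbred strain. The labels do not name the cell line, the site of inoculation or the age of the mice. Whether each tumor is from its own mouse is not said either, so the p-values speak only of the scatter among these samples, part of which may be technical. Reading 24 h as the time from treatment to sampling is an assumption. The remaining arrays, 3 at 48 h and 3 at 72 h, served to estimate the spread and to set the 24 h levels beside later ones. The values are log2 signals on Affymetrix Mouse Clariom S arrays for 22206 probe sets, each reporting a transcript, and differences are log2 differences of HIFU_24h minus control. The base of the logarithm was inferred from how far the values range, and folds rest on it.

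Focused ultrasound used for mechanical fractionation breaks up tissue by bursts of sound rather than by sustained heating. A tumor grown from inoculated cells also holds stroma, blood vessels, immune cells and parts of the host tissue it invades, so bulk RNA mixes the tumor with its surroundings. In bulk samples, fewer cells of a type and less RNA per cell cannot be told apart. Injured or fasting tissue is known to switch on several programs, among them acute-phase proteins, metal-binding metallothioneins, the ubiquitin ligases that break down muscle protein, and the kinases that turn pyruvate away from oxidation. Interferon, in turn, induces GTPases, antigen-presenting molecules and the immunoproteasome in tumor and immune cells.

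The tumor label was checked on markers of sympathetic neuroblasts. Of 16 such genes 13 were measured. All 13 had control means above the medians of the control arrays (5.43 to 5.45), and 12 had 24 h means above those of the HIFU_24h arrays (5.44 to 5.55), the exception being Ddc at 5.18. Dbh, the last enzyme of noradrenaline synthesis, averaged 14.08 and 14.89, and the neuronal stathmin Stmn2 14.68 and 16.03. At 24 h 6 of the 13 were higher and 7 lower on average, Gata2 by the most (-1.96), and 2 of them, Prph and Elavl4, had all HIFU arrays below the controls. Arrays correlated with r from 0.975 to 0.991 within the controls, from 0.967 to 0.979 within HIFU_24h, and from 0.95 to 0.988 between the groups. All 24 markers of skeletal muscle were higher on average at 24 h, by a median of 3.37, and for 14 of them the groups did not overlap (6.84% of all probe sets had all HIFU arrays above the controls, and 7.68% all below). Relative to the control mean, their median was -1.31, -0.55 and 2.05 in control replicates 1, 2 and 3, and 5.36, 2.18 and 2.75 in HIFU_24h replicates 1, 2 and 3. No muscle marker was near the bottom of the scale, the lowest control mean being 6.25 for Tcap. For the genes past the threshold, the arrays nearest in muscle signal are set side by side below, without a test. Otherwise the part of muscle content was examined only by adding this median to the fit, with values given beside some of the results. Because the median itself differs between the groups, that fit cannot tell muscle content and treatment apart. Fibroblast markers (9 measured) had medians of 4.13, 0.21 and 3.01 in the HIFU_24h arrays, and neutrophil markers (15 measured) 1.57, -0.04 and 1.5, so HIFU_24h replicate 2 was the lowest of its group for both.

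Over the whole array most transcripts moved little: 16120 probe sets (72.6%) differed by no more than 0.5, and the median difference was 0.0. There were 952 probe sets higher by over 1 log2 unit and 902 lower, while 296 were higher and 163 lower by over 2. The median standard error (SE) was 0.32. After Benjamini-Hochberg adjustment over all probe sets, 12 passed 0.05 (0.054% of those tested), 11 higher (0.0495%) and 1 lower (0.0045%). At an unadjusted p under 0.05 there were 2185 (9.84%), 884 higher (3.98%) and 1301 lower (5.86%). The plot of differences against p-values shows the 11 rises far out on the right and Cd72 on the left.

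**Figure D1:**
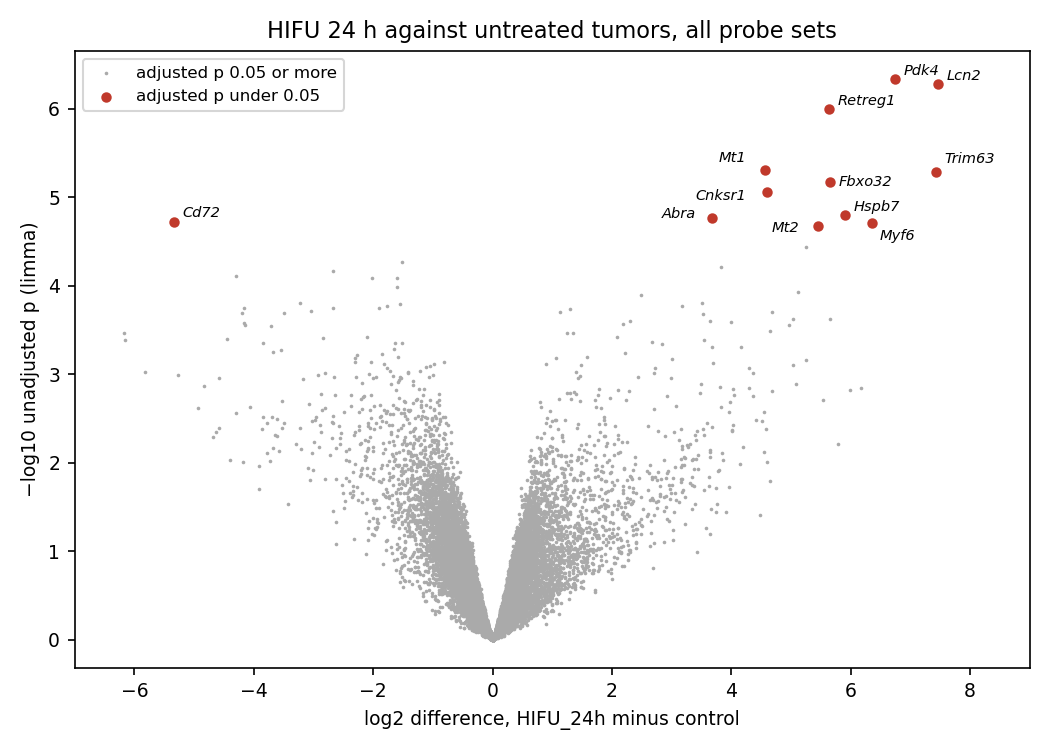
Each point is a probe set; the horizontal axis is the log2 difference of HIFU_24h minus control and the vertical axis is −log10 of the unadjusted limma p. The 12 probe sets with an adjusted p under 0.05 are red and named; 11 lie on the right, between 3.67 (Abra) and 7.46 (Lcn2), and Cd72 lies alone on the left at -5.33.

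The 11 transcripts past the threshold that were higher at 24 h include those of a pyruvate dehydrogenase kinase and a siderophore-binding protein. Others encode a receptor of endoplasmic reticulum autophagy, 2 muscle ubiquitin ligases and 2 metallothioneins. The remaining 4 encode further proteins, of which 3 are best known from muscle. In each of the 11, all HIFU_24h arrays lay above all controls, and the gap between the groups ranged from 2.95 to 6.43. HIFU_24h replicate 2, the array with the lowest muscle, fibroblast and neutrophil medians of its group, was the lowest of the HIFU_24h arrays for all 11. HIFU_24h replicate 1 was the highest for 9.

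Pdk4 (probe set TC0600001810.mm.2) encodes a kinase that inactivates pyruvate dehydrogenase and so spares glucose during fasting. Its log2 signal was 8.39, 8.08 and 7.88 in the controls and 15.27, 14.48 and 14.82 at 24 h. All arrays of a group lay close together, and the difference was 6.74 ± 0.66 SE (95% interval 5.29 to 8.19, adjusted p = 0.00589). The sister kinases are encoded by other genes: Pdk2 differed by 2.64 (adjusted p = 0.449; -0.32 with the muscle covariate), and Pdk1 and Pdk3, which lie outside the naming rule, by -1.09 and 0.77 (adjusted p = 0.585 and 0.661). Of this family Pdk4 alone passed the threshold; differences between the members were not tested.

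Lcn2 (TC0200003303.mm.2) encodes lipocalin 2, an acute-phase protein that withholds iron-loaded siderophores from bacteria. Its signal was 6.45, 6.53 and 8.09 in the controls against 14.87, 13.36 and 15.23 at 24 h, with control replicate 3 the highest control. The 95% interval of the difference ran from 5.84 to 9.09. Retreg1 (TC1500000165.mm.2), also called FAM134B, encodes a membrane-bending receptor that feeds sheets of endoplasmic reticulum into autophagosomes. It read 9.18, 8.94 and 9.51 in controls and 15.35, 14.25 and 14.94 at 24 h, a 49.8-fold rise (5.64 ± 0.60 SE, adjusted p = 0.00751). Among the 9 measured receptors of endoplasmic reticulum autophagy, Retreg1 was the only one to pass (11.1% with all arrays above the controls, against 6.84% of all probe sets). The others ranged from -0.75 for Retreg3 to 0.62 for Ccpg1 (-0.05 with the muscle covariate), and the median of all 9 was -0.03.

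Trim63 and Fbxo32 encode MuRF1 and atrogin-1, ubiquitin ligases that mark muscle proteins for the proteasome during atrophy. Trim63 (TC0400001631.mm.2) read 6.25, 6.72 and 7.16 in controls and 14.85, 13.59 and 13.99 at 24 h, a 173-fold rise (95% interval of the log2 difference 5.40 to 9.46). Fbxo32 (TC1500001570.mm.2) went from 6.47, 6.9 and 6.66 to 13.38, 11.32 and 12.27, a 50.1-fold rise. In both genes every HIFU array lay far above every control. The TRIM family of ubiquitin ligases as a whole did not follow Trim63: of 39 measured members 15 were higher and 24 lower, with a median of -0.10. Its closest relative on the list of named members, Trim54 (MuRF3), differed by 2.39 ± 0.75 SE (adjusted p = 0.363).

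The metallothioneins Mt1 and Mt2 bind zinc and copper and are induced by metals, glucocorticoids and oxidants. Mt1 (TC0800001095.mm.2) was already strong in controls, at 14.7, 14.04 and 14.36, and read 19.29, 18.09 and 19.41 at 24 h, a 23.6-fold rise (4.56 ± 0.57 SE, adjusted p = 0.0227). The value of 19.41 was the highest signal on the HIFU_24h replicate 3 array; whether the probes were saturated was not tested, and if they were, the fold is a lower bound. Mt2 (TC0800001094.mm.2) read 12.98, 12.09 and 13.63 in controls and 19.21, 17.11 and 18.74 at 24 h, a 43.8-fold rise. The 2 genes are neighbours of similar sequence, and cross-hybridization between their probes was not tested.

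The other rises started from low signals or belonged to muscle. Cnksr1 (TC0400003731.mm.2), a scaffold of Ras signaling, read 2.99, 3.01 and 3.19 in controls, near the floor of the arrays, and 8.73, 6.14 and 8.09 at 24 h (4.59 ± 0.60 SE, adjusted p = 0.0274). So close to the floor, this difference may understate the change. Myf6 (TC1000002821.mm.2), a myogenic transcription factor of mature fibers, went from 5.78, 4.94 and 5.03 to 12.57, 9.93 and 12.29, an 81.4-fold rise. Its lowest HIFU array, replicate 2, lay apart from the others of its group. Hspb7 (TC0400001790.mm.2), a small chaperone of cardiac and skeletal muscle, read 11.97, 10.27 and 13.21 in controls and 18.93, 16.31 and 17.94 at 24 h (adjusted p = 0.039). Abra (TC1500001446.mm.2), an actin-binding activator of serum response factor in striated muscle, read 6.14, 6.12 and 6.48 against 10.68, 9.53 and 9.55, a 12.8-fold rise.

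Cd72 (TC0400002523.mm.2) was the only probe set past the threshold that was lower at 24 h. It encodes a C-type lectin coreceptor of B cells, found also on some myeloid cells. Its signal was 14.66, 11.72 and 11.77 in controls and 7.73, 6.71 and 7.71 at 24 h, a 40.3-fold fall with groups separated by 3.99 log2 units. Of 9 B cell markers measured (12 on the list), 6 were higher and 3 lower at 24 h, with a median of 0.42. Of these markers 4 were among the lowest 25% of signals. Ms4a1 (CD20) averaged 3.21 in controls and 3.24 at 24 h, Cd79a 3.55 and 4.01, and Fcer2a (CD23), above the array medians, 5.88 and 6.41.

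**Figure D2:**
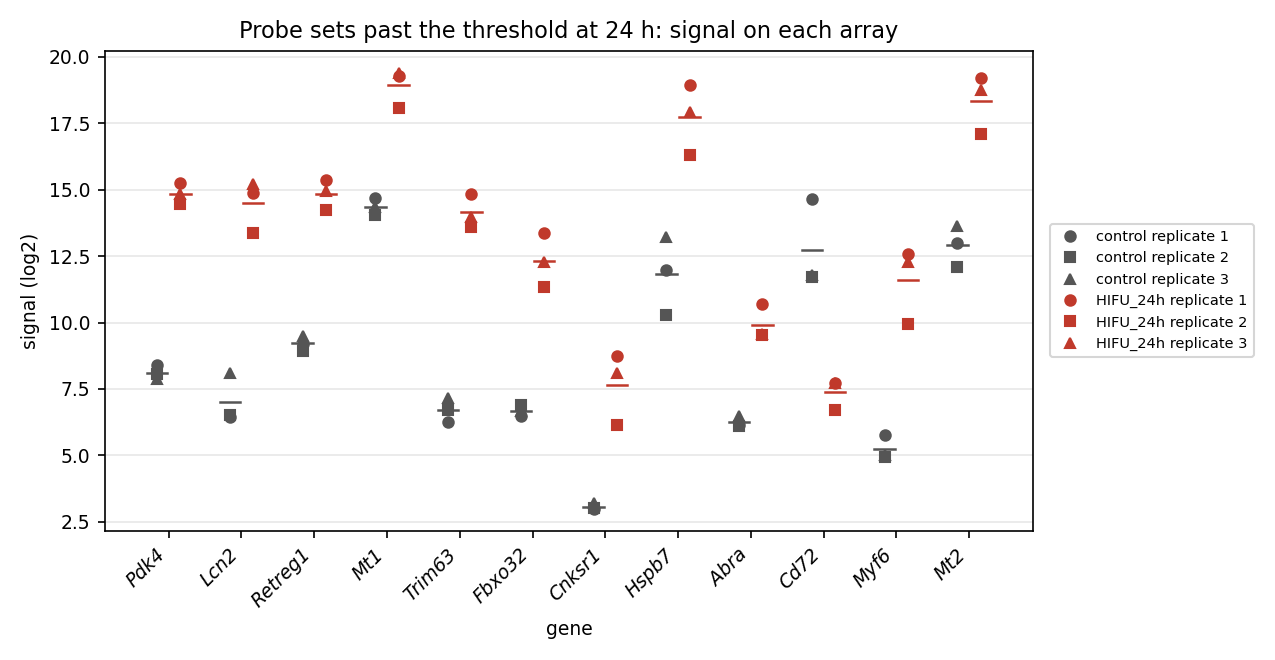
Log2 signal of the 12 genes past the threshold on each control (grey) and HIFU_24h (red) array; markers show the replicate and bars the group means. Groups do not overlap for any of the 12; HIFU_24h replicate 2 is the lowest of its group for all 11 rises, for example 13.36 for Lcn2 against 14.87 and 15.23.

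Muscle markers, like these 11 transcripts, were higher at 24 h. Within the controls the genes differed in how they ran beside muscle. Muscle medians were -1.31, -0.55 and 2.05 in control replicates 1, 2 and 3. Trim63 read 6.25, 6.72 and 7.16 there, while Pdk4 read 8.39, 8.08 and 7.88. Control replicate 3 (muscle median 2.05) and HIFU_24h replicate 2 (2.18) were the pair nearest in muscle signal. Between these 2 arrays, which allow no test, the 11 differences ranged from 2.95 (Cnksr1) to 6.6 (Pdk4), and that of Cd72 was -5.06; their signs carry no information, since the groups of these genes do not overlap. With the muscle median as a covariate the differences were 6.37 ± 0.89 SE for Pdk4, 5.94 ± 0.76 SE for Lcn2 and 5.62 ± 0.98 SE for Trim63, with the same sign for all 12, and the count past the threshold went from 12 to 0 (adjusted p = 0.157 to 0.374). The count was also 0 when any of HIFU_24h replicates 1 and 3 or control replicates 1 and 2 was left out; it was 253 without control replicate 3 and 31 without HIFU_24h replicate 2.

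Promoter sequences of these genes are shown for Trim63 and Lcn2, which rose most. RefSeq (assembly GRCm38.p6) gave windows of 250 bases before the start for 9 of the 12 genes, 12 windows in all, and 32851 windows for all genes. The windows lie at chr4:134314870-134315119 on the plus strand for Trim63 and chr2:32387740-32387989 on the minus strand for Lcn2. Capitals mark, in Trim63 in order, the palindrome core of a glucocorticoid response element, a FOXO site and an E-box, and in Lcn2 a C/EBP site.
Trim63: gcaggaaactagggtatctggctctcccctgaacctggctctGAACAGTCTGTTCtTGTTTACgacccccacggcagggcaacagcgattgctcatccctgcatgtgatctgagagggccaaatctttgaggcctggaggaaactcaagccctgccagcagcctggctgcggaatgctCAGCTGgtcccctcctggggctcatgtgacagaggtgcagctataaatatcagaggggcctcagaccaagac
Lcn2: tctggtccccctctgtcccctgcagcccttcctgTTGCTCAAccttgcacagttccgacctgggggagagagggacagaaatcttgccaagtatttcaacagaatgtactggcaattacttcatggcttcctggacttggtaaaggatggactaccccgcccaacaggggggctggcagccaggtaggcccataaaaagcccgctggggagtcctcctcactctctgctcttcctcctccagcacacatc
The palindrome (GNACA and TGTNC with 3 free bases between) lies 208 to 196 bases before the start of Trim63, and the FOXO site (GTAAACA, here on the other strand) 194 to 188 bases before it. The palindrome was found in 2 of the 12 windows, those of Trim63 and Mt1, and in 0.387% of all windows. The Mt1 window overlaps the annotated Mt1 gene. This palindrome pattern was chosen after the sequences were seen. The stricter pattern of AGAACA and TGTTCT at the same spacing was in 0 of the 12. The FOXO site was in 1 of the 12 windows and in 3.17% of all. Other motifs are common in promoters. The C/EBP site TTNCNNAA was in 4 windows against 36.8% of all, and the E-box CAGCTG in 1 against 13.0%. The metal response element TGCNCNC was in 5 windows, from 3 genes, against 44.4%. All motifs were sought on both strands, and a match describes letters, not binding.

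The next 20 named transcripts upward by unadjusted p did not pass the threshold (adjusted p = 0.0618 to 0.158), with differences of 1.13 to 5.65. Mustn1, a small nuclear protein of muscle and bone, read 11.3, 10.82 and 10.96 in controls and 17.01, 15 and 16.85 at 24 h (5.26 ± 0.81 SE, adjusted p = 0.0618). Ankrd1, a titin-binding ankyrin repeat protein induced by stretch, read 11.1, 9.05 and 9.01 against 16.71, 12.86 and 16.55. Both had HIFU_24h replicate 2 well below the other HIFU arrays. The group also held the kelch proteins Klhl38 (3.83) and Klhl40 (4.68), the stretch-responsive Ankrd2 (4.96), the Z-disc protein Myot (4.65), the fatty acid carrier Fabp3 (3.64) and Rrad (5.11), a small GTPase that restrains calcium channels.

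Ppargc1a, the coactivator that drives mitochondrial biogenesis, was among them and had its groups well apart. It read 3.34, 3.94 and 4.05 in controls and 7.34, 6.59 and 6.92 at 24 h (3.17 ± 0.58 SE, adjusted p = 0.124). The nuclear receptor Rora, an activator within the circadian clock, was measured by 2 probe sets, which differed by 3.51 and 3.67 (adjusted p = 0.124 and 0.171). Others of the 20 were Thbd, the endothelial anticoagulant thrombomodulin (4.0 ± 0.77 SE), Serpina3n, an acute-phase protease inhibitor (5.03 ± 0.95 SE), and A4galt, the synthase of the glycolipid Gb3. A4galt read 7.33, 7.46 and 8.81 in controls and 10.11, 10.52 and 9.86 at 24 h. Zbtb16, the zinc finger factor PLZF, differed by 2.19, Synj2, an inositol phosphatase, by 2.08, and Cc2d2a, a protein of the ciliary transition zone, by 1.30. Among the 10 largest rises, Retnlg, a neutrophil transcript, and Prg4, the lubricin of joints, stood at 5.78 and 5.54, and each was uneven across the HIFU arrays: Retnlg read 11.85, 6.23 and 11.7.

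Downward, the next 20 named transcripts had differences of -6.16 to -1.52 and adjusted p = 0.0853 to 0.16. Itgax, the integrin CD11c of dendritic cells, came closest: 5.5, 4.72 and 4.97 in controls against 3.51, 3.71 and 3.41 at 24 h. Psme2, a subunit of the proteasome activator, varied little within groups, at 11.76, 11.15 and 11.46 against 9.92, 9.82 and 9.83. Also among the 20 were the GTPases Igtp (-4.16), Irgm1 (-3.50), Iigp1 (-4.16) and Gbp3 (-4.14), the immunoproteasome subunits Psmb8 (-2.68) and Psmb9 (-2.84), the class I chains H2-K1 (-2.02) and H2-D1 (-2.11), and Parp9 (-2.68). Bst2, the antiviral tether, read 16.27, 16.02 and 13.05 against 10.64, 11.93 and 10.21. Of 13 measured markers of T and NK cells, 12 were lower on average, with a median of -0.66. All HIFU arrays lay below the controls for 3 of them (23.1%, against 7.68% of all probe sets). Their array medians relative to the control mean were 0.26, -0.44 and 0.0 in the controls and -0.69, -1.07 and -0.44 at 24 h, and 5 of the 13 were among the lowest 25% of signals. The part of these cells in the differences was not tested.

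The same rank range held transcripts of other roles. Dpysl2, a cytoskeletal protein of growing axons, read 14.14, 13.57 and 13.28 in controls and 12.2, 12.34 and 11.18 at 24 h (-1.76 ± 0.32 SE, adjusted p = 0.124). Mtmr2, a phosphoinositide phosphatase of endosomes, differed by -1.60 ± 0.28 SE, and Stc2, the secreted stanniocalcin 2, by -3.04 ± 0.56 SE. Aldoc, the neural aldolase of glycolysis, read 12.24, 10.04 and 8.35 against 6.06, 6.2 and 5.48, its controls spanning more than its distance to the HIFU arrays.

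The 10 largest downward differences separate by how the controls spread. Cxcl9, a chemokine for T cells, and the GTPase Tgtp2 were lower than every control by a wide margin: Tgtp2 read 14.33, 12.56 and 10.83 against 6.6, 5.11 and 7.52. In Dlk1, an imprinted regulator of differentiation, the controls were 16.45, 15.65 and 10.12 and the HIFU arrays 8.73, 8.56 and 7.47. Nnat, an imprinted membrane protein of neurons, had 12.03, 11.3 and 5.71 against 4.27, 5.5 and 4.45, so control replicate 3 lay by the HIFU arrays. The transcription factor Tbx1 (15.18, 14.05 and 8.37 against 7.62, 7.99 and 8.11) and the growth factor binder Igfbp2 (16.94, 15.56 and 10.3 against 9.8, 9.24 and 9.99) had the same shape. None of these 4 passed (adjusted p = 0.213 for Dlk1, 0.274 for Nnat, 0.307 for Tbx1 and 0.301 for Igfbp2).

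**Figure D3:**
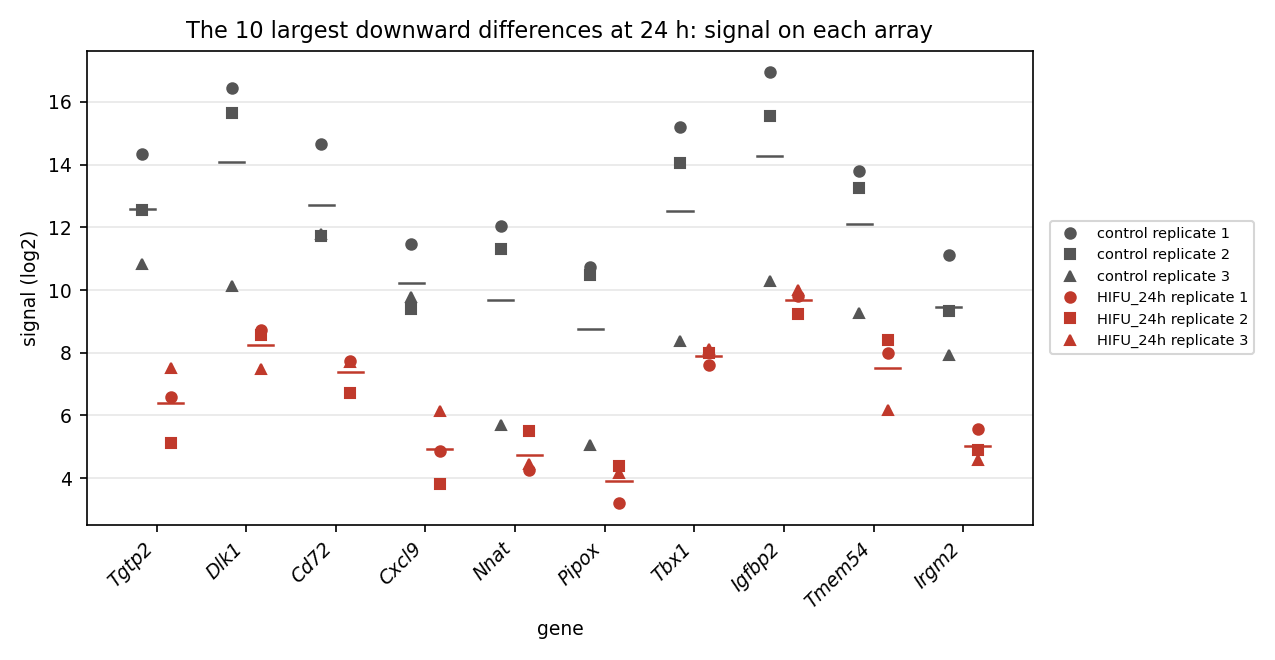
Log2 signal of the 10 largest downward differences on each control (grey) and HIFU_24h (red) array; markers show the replicate and bars the group means. Control replicate 3 (grey triangle) is the lowest control for 8 of the 10, and for Nnat, at 5.71, it lies within a log2 unit of HIFU_24h replicate 2, at 5.5.

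Control replicate 3 was most often the control nearest to the HIFU arrays among probe sets that differed by over 1 log2 unit without overlap. Other probe sets were not counted. Of 483 such probe sets that were lower, control replicate 3 was the nearest control in 336 (69.6%), and of 457 higher ones in 323 (70.7%). It was the lowest control for 18 of the 20 next downward transcripts. It was also the control with the highest muscle, neuroblast, fibroblast, endothelial and adipocyte medians, though not macrophage, neutrophil or T and NK cell medians. Neuroblast medians were -0.95, 0.03 and 1.1 in control replicates 1, 2 and 3, and fibroblast medians -0.74, -0.52 and 1.33. The part of muscle or other tissue content in this pattern was not tested.

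Pathways outside these groups were described by lists of genes, set beside all 19505 genes with a symbol, whose median was at 0 and of which 6.84% had all HIFU arrays above and 7.96% below the controls. Cholesterol synthesis genes were lower on average. Enzymes of this pathway and its regulators are switched on by the factor SREBP2 when sterol runs short. All 19 measured members were lower on average, with a median of -0.66; 0 passed the threshold, 9 were lower at an unadjusted p under 0.05 (5.86% of all probe sets were), and 7 (36.8%) had all HIFU arrays below the controls. Msmo1, a sterol oxidase, read 7.72, 7.35 and 8.4 in controls and 5.79, 6.87 and 6.08 at 24 h (-1.58 ± 0.34 SE, adjusted p = 0.196). Insig1, the sterol-sensing retention protein that is itself a target, read 10.12, 9.81 and 10.87 against 8.24, 8.95 and 8.34 (-1.76 ± 0.39 SE, adjusted p = 0.21). Cyp51 and Hmgcs1, a demethylase and the synthase at the head of the pathway, differed by -1.49 and -1.35 (adjusted p = 0.334 and 0.361). Outside the naming rule, Srebf2, the gene of SREBP2, differed by -1.38 ± 0.51 SE and Sqle, squalene epoxidase, by -1.98 ± 0.66 SE.

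HIFU_24h replicate 2 was again the array nearest to controls for this pathway: the medians relative to the control mean were -0.9, -0.26 and -1.52 in HIFU_24h replicates 1, 2 and 3, and -0.15, -0.26 and 0.57 in the controls. The list median was -0.48 without control replicate 3, -0.45 without HIFU_24h replicate 3, and -0.66 with the muscle covariate. The genes share arrays and a regulator, so their common direction is not 19 separate observations.

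Enzymes and transporters of the amino acid response, the targets of ATF4 that make serine, asparagine and cysteine available, were lower in 18 of 20 members, with a median of -0.70 and 8 (40.0%) below all controls. Phgdh, the entry enzyme of serine synthesis, read 12.35, 11.55 and 10.43 in controls and 8.8, 10.2 and 9.01 at 24 h (-2.11 ± 0.72 SE, adjusted p = 0.407). Cth, which makes cysteine, read 8.61, 8.7 and 5.76 against 5.59, 5.75 and 5.11, control replicate 3 lying by the HIFU arrays. Pck2, mitochondrial phosphoenolpyruvate carboxykinase, differed by -0.89 and Sesn2, a leucine sensor, by -0.70. No member passed the threshold, and the list median went to 0.30 with the muscle covariate. Atf4 itself, outside the naming rule, differed by 0.06.

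**Figure D4:**
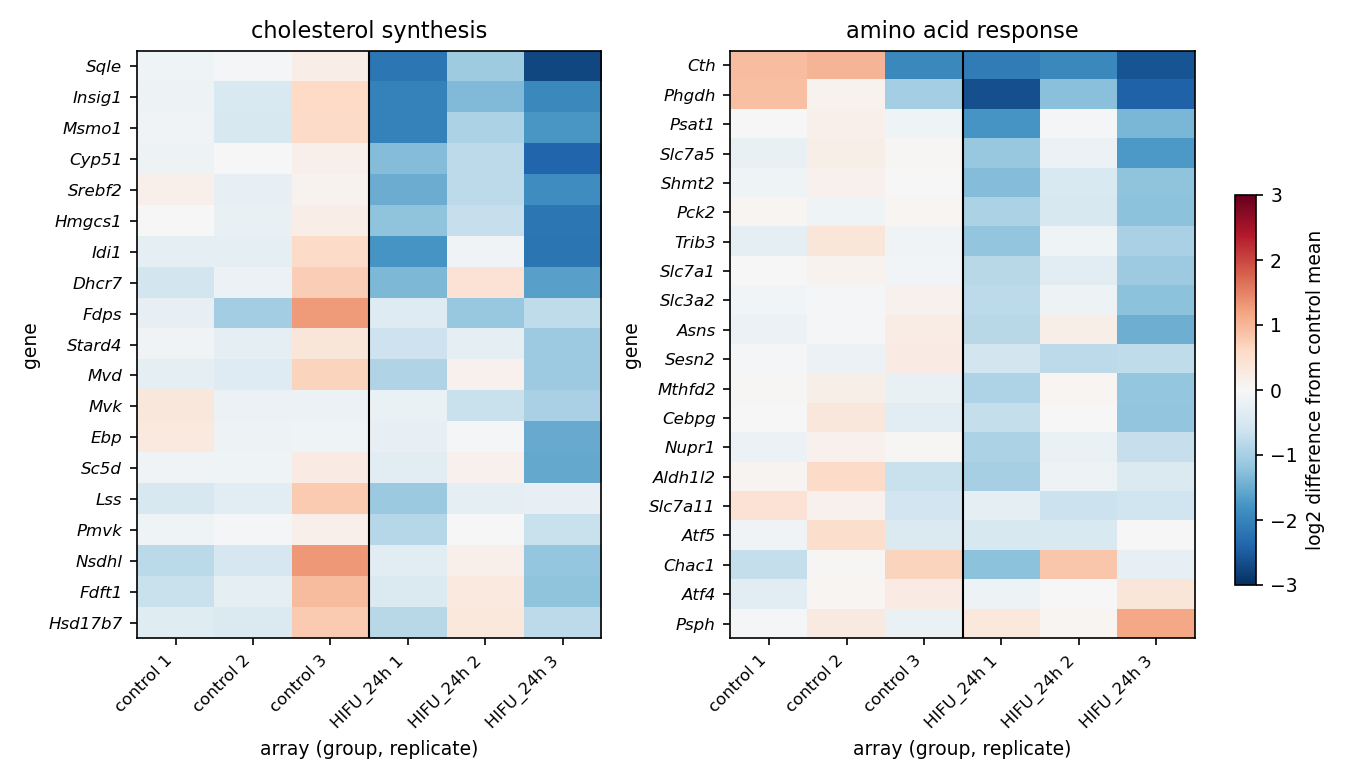
Rows are genes of the cholesterol synthesis (left, 19) and amino acid response (right, 20) lists, columns the 3 control and 3 HIFU_24h arrays, and color the log2 difference from the gene's control mean, blue lower and red higher. Blue is deepest in HIFU_24h replicates 1 and 3 and paler in replicate 2, whose list medians are -0.26 and -0.17; in Cth, control replicate 3 is as low as the HIFU_24h arrays.

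Elements known to act on these sets were looked for in the same RefSeq windows. Hmgcs1 is shown because it was the only sterol gene with the element. Asns (asparagine synthetase) and Nupr1 are shown as the carriers of the amino acid element with the lowest p whose windows lie outside the annotated gene. The element lies 23 to 16 bases before the start in Asns and 110 to 103 in Nupr1. The windows are chr13:119690101-119690350 on the plus strand for Hmgcs1, chr6:7693210-7693459 on the minus strand for Asns and chr7:126625471-126625720 on the minus strand for Nupr1. Capitals mark the sterol response element in Hmgcs1 and the amino acid response element in the others.
Hmgcs1: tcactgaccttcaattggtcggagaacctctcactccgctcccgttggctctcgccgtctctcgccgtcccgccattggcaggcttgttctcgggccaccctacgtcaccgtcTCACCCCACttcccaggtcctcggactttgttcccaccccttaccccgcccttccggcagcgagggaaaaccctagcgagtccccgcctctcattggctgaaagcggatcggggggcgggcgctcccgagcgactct
Asns: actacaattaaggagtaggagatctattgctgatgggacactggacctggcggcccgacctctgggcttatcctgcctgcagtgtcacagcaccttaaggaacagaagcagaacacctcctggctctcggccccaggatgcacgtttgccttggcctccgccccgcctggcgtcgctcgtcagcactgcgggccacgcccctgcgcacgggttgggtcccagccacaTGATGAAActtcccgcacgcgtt
Nupr1: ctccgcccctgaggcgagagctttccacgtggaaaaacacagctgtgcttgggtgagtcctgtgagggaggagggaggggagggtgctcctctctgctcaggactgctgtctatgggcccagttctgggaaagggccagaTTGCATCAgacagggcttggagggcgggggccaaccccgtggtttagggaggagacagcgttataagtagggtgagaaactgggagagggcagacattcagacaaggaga
The sterol element, TCACNCCAC, was in 1 of the 18 windows of 15 sterol genes and in 1.05% of all windows. The amino acid element, TGATGNAA, was in 5 of 20 windows of 17 genes and in 3.45% of all; besides the pair shown, Pck2, Slc7a11 and Chac1 had it. Both patterns were chosen after values of these genes were seen. The carriers were not the members that differed most: Asns read 18.53, 18.64 and 18.93 in controls and 17.87, 18.87 and 17.23 at 24 h (-0.71 ± 0.58 SE), and Nupr1 differed by -0.61 ± 0.29 SE. Neither Asns nor Nupr1 is named by the rule; they are given for their sequences.

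Acute-phase genes, made mainly in liver but also in injured tissue, were higher in 20 of 27 members and lower in 6, with a median of 0.68 and 18.5% above all controls. Lcn2 alone passed. Cebpd, a transcription factor of the response, read 5.71, 5.52 and 6.23 against 8.46, 6.96 and 7.33 (1.76 ± 0.52 SE, adjusted p = 0.329). Hp, the hemoglobin scavenger haptoglobin, differed by 3.30 ± 1.18 SE with overlapping groups. HIFU_24h replicate 2 was the lowest HIFU array for 22 of the 27, and the list median was -0.04 with the muscle covariate. The fibrinogen genes Fga, Fgb and Fgg, acute-phase products of the liver and outside the naming rule, differed by -0.10, 0.09 and -0.12.

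Mitochondrial oxidation as a whole stayed near zero. The respiratory chain had a median of -0.06 over 42 genes, 16 higher and 26 lower. HIFU_24h replicate 3 was the lowest HIFU array for 40 of them, with array medians of 0.28, 0.21 and -0.65, and the list median was 0.25 without it. The tricarboxylic acid cycle and its feeders had a median of -0.08 over 24 genes. Apart from Pdk4 the named members were Pdk2 (2.64, or -0.32 with the muscle covariate), Mpc1, the pyruvate carrier (1.01), and Suclg2, a subunit of succinyl-CoA ligase, which read 9.53, 9.42 and 9.51 in controls and a tight 8.75, 8.82 and 8.71 at 24 h (-0.73 ± 0.26 SE, adjusted p = 0.407).

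Genes of RNA and protein production were slightly lower on average, with no member past the threshold. Splicing factors were lower in 21 of 27 (median -0.33, 29.6% below all controls), ribosome biogenesis factors in 18 of 22 (-0.21), and aminoacyl-tRNA synthetases in 18 of 21 (-0.14). Synthetase array medians overlapped, at -0.25, 0.0 and 0.18 in the controls and -0.22, 0.11 and -0.33 at 24 h. Those of ribosome biogenesis were -0.15, -0.04 and 0.14 against -0.34, -0.02 and -0.55. The named members Yars, Aimp1 and Dkc1 changed sign with the muscle covariate. Rrn3, an initiation factor of RNA polymerase I, read 12.39, 11.93 and 12.29 against 11.06, 11.47 and 11.14 (-0.98 ± 0.29 SE, adjusted p = 0.334). The unfolded protein response had a median of -0.12 over 18 genes, the chaperone Calr differing by -0.66 and Sec61b, a translocon subunit, by -0.90.

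Lists of stress and cell death had small medians with a few members apart. Among 18 p53 targets (median 0.15) the cell cycle inhibitor Cdkn1a had the lowest p: 9.71, 9.67 and 11.44 in controls and 13.98, 12.18 and 12.75 at 24 h (2.70 ± 0.61 SE, adjusted p = 0.213). Ccng1 and Plk2 differed by 2.00 and 2.15, but with the muscle covariate by -0.73 and -0.41. Among 23 oxidative stress genes (median 0.15), Srxn1, sulfiredoxin, differed by 1.72 ± 0.57 SE and Hmox1, heme oxygenase, by 3.34 ± 1.21 SE, the latter with overlapping groups (11.49, 11.58 and 13.66 against 16.05, 13.51 and 17.2). Apoptosis regulators had a median of -0.16 over 23 genes.

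In the pyroptosis and necroptosis list the executor of necroptosis, Mlkl, had the lowest p of the list. It read 12.84, 12.57 and 12.72 in controls and 11.39, 11.78 and 11.48 at 24 h (-1.16 ± 0.30 SE, adjusted p = 0.277). The sensors Aim2 and Zbp1 differed by -1.01 and -1.40, and the adaptor Pycard by -0.96; the list median was -0.10 over 14 genes. Autophagy genes had a median of 0.18 over 30, with 21 higher: the cargo receptor Sqstm1 differed by 1.37, Gabarapl1, an ATG8 protein, by 0.98, and Bnip3, a mitophagy receptor, by -0.92 (adjusted p = 0.407, 0.413 and 0.424). In the lysosome list (24 genes, median 0.15) Npc1, the cholesterol exporter, differed by 1.18 ± 0.40 SE and read 8.43, 8.53 and 8.72 against 10.3, 9.33 and 9.58.

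**Figure D5:**
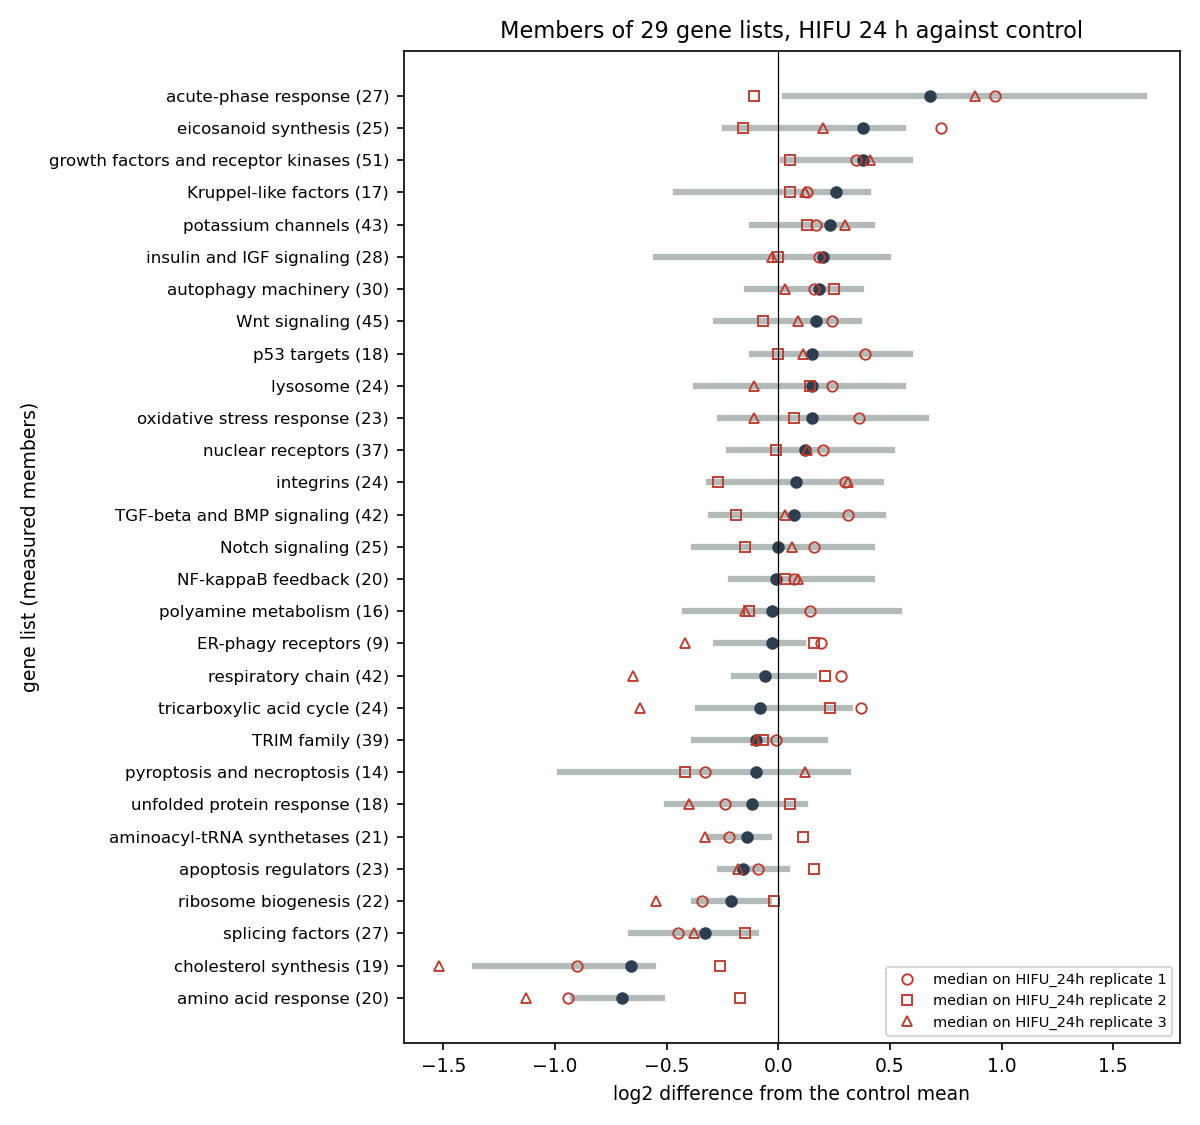
For each of 29 gene lists, with the number of measured members in brackets, the filled point is the median log2 difference of HIFU_24h minus control over the members, the bar spans the middle 50% of members, and open symbols are the median on each HIFU_24h array relative to the control mean. Medians run from -0.70 (amino acid response) to 0.68 (acute-phase response), and the HIFU_24h arrays of a list often lie apart, as for the respiratory chain at 0.28, 0.21 and -0.65.

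Signaling pathways gave mixed lists. In Wnt signaling, 28 of 45 genes were higher and 17 lower (median 0.17), and the members with an unadjusted p under 0.05 were 0 higher and 6 lower, against 3.98% and 5.86% of all probe sets. Tcf7l2, a nuclear partner of beta-catenin, read 12.88, 11.71 and 10.84 in controls and 9.37, 10.22 and 9.63 at 24 h (-2.07 ± 0.47 SE, adjusted p = 0.213). The receptors Fzd2 and Lgr4 differed by -2.10 and -1.02, and Lef1, another nuclear partner, by -1.33 (0.11 with the muscle covariate). Of 25 Notch genes (median at 0), the coactivator Maml1 had the lowest p, reading 7.0, 7.04 and 6.64 against 5.86, 5.97 and 5.74 (-1.04 ± 0.23 SE, adjusted p = 0.207); its relative Maml2 differed by -1.07 and the target Hey2 by -0.87.

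Growth factors and their receptor kinases were higher in 38 of 51 (median 0.38), and 10 of the 51 were among the lowest 25% of signals. Their array medians were 0.04, -0.01 and -0.07 in the controls and 0.35, 0.05 and 0.41 in HIFU_24h replicates 1, 2 and 3. Kitl, the ligand of KIT, differed by 2.35 ± 0.86 SE and Hbegf, an EGF receptor ligand, by 1.02 ± 0.33 SE. At an unadjusted p under 0.05, 7 members were higher and 1 lower, against 3.98% and 5.86% of all probe sets. The lower member, the receptor Fgfr1, read 9.3, 8.06 and 6.51 in controls and 6.32, 5.5 and 5.34 at 24 h (-2.24 ± 0.62 SE, adjusted p = 0.296). In the TGF-beta and BMP list (42 genes, median 0.07) the type I receptor Acvr1 differed by 1.16 and the type II receptor Acvr2b by 0.82. Bmpr1a and the pseudoreceptor Bambi differed by -1.03 and -2.18, both with overlapping groups. Bambi read 8.38, 7.46 and 4.6 in controls and 4.25, 4.72 and 4.94 at 24 h, control replicate 3 lying inside the HIFU range. Insulin and IGF signaling (28 genes, median 0.20) held, beside Igfbp2, the binder Igfbp5, at 16.09, 15.09 and 10.24 against 10.37, 9.52 and 8.32, with control replicate 3 inside the HIFU range.

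Transcription factor families and potassium channels were described in the same way. Among 37 nuclear receptors and coactivators (median 0.12) Nr2f2, COUP-TFII, read 12.86, 12.8 and 11.5 in controls and 10.67, 11.22 and 9.24 at 24 h (-2.01 ± 0.62 SE, adjusted p = 0.354), and the clock repressor Nr1d1 differed by 1.59. Of 17 Kruppel-like factors (median 0.26), Klf9 read 6.54, 6.23 and 7.22 against 9.64, 8.1 and 8.89 (2.21 ± 0.74 SE, adjusted p = 0.388). Potassium channels were higher in 30 of 43 (median 0.23), and 8 (18.6%) had all HIFU arrays above the controls, against 6.84% of all genes. Of the 43, 16 were among the lowest 25% of signals. Olfactory receptors, a family outside these lists, also leaned upward on average. Of 1080 olfactory receptors, 854 were among the lowest 25%. Of the 1080, 667 were higher and 411 lower (median 0.08), with 8.06% above all controls and 2.69% below. Their array medians relative to the control mean were 0.01, -0.03 and 0.2 in HIFU_24h replicates 1, 2 and 3, so the lean lay in replicate 3. Kcnj12, an inward rectifier, read 5.13, 5.91 and 6.71 against 7.45, 7.09 and 7.09 (1.29 ± 0.42 SE, adjusted p = 0.374). In polyamine metabolism (16 genes, median -0.03), Arg1, arginase 1, read 4.85, 5.06 and 5.45 against 10.2, 5.8 and 10.34, so its difference of 3.66 rested on HIFU_24h replicates 1 and 3.

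Eicosanoid enzymes (25 genes, median 0.38) held Ptgs2, cyclooxygenase 2, at 5.08, 4.41 and 5.71 against 8.24, 5.47 and 11.53, the 3 HIFU tumors spanning more than the difference of 3.35. NF-kappaB feedback genes (20) had a median of -0.01, with Bcl3 at 1.60 and Rel at 0.73 and Vcam1 at -0.82. Integrins (24 genes, median 0.08) included Itgax and, upward, Itgb4 at 0.77 and Itgb6 at 1.14 (-0.02 with the muscle covariate). Again HIFU_24h replicate 2 was the lowest HIFU array for 17 of the 25 eicosanoid genes and 16 of the 24 integrins.

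The 24 h levels were set beside those at 48 and 72 h, in direct contrasts that leave out the controls. No probe set passed at 24 against 48 h (limma, 0 of 22206; 863 at an unadjusted p under 0.05, 3.89%; lowest adjusted p = 0.999) or at 24 against 72 h (0; 1236, 5.57%; lowest adjusted p = 0.096). Among the 11 rises, 10 had a higher mean at 24 h than at 72 h and 10 a higher mean than at 48 h, Lcn2 being the exception in both. The 11 were picked for high 24 h signals, so these counts are partly built in and do not show a decline. Trim63 averaged 14.14 at 24 h, 11.98 ± 0.96 (SD, n = 3) at 48 h and 10.16 ± 2.35 at 72 h, 24 minus 72 h being 3.98 ± 0.93 SE (adjusted p = 0.547). Retreg1 averaged 14.85, 13.07 ± 1.04 and 11.54 ± 1.15 (24 minus 72 h 3.30 ± 0.60 SE, adjusted p = 0.341), and Cnksr1 7.65, 5.86 ± 0.75 and 4.38 ± 0.68 (3.27 ± 0.60 SE, adjusted p = 0.341). Lcn2 went the other way, with 14.49, 15.11 ± 0.75 and 17.44 ± 1.43 (-2.95 ± 0.74 SE, adjusted p = 0.599). Cd72 averaged 7.38, 8.25 ± 1.19 and 9.82 ± 0.34 (-2.44 ± 0.76 SE, adjusted p = 0.814). These contrasts at single genes did not pass, so the order of the times is a description.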

How the data were processed

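RNA of 12 tumors was hybridized to Mouse Clariom S arrays, 1 array a tumor. The values deposited by the authors are log2 signals per probe set made, per the submitters' processing notes, with Transcriptome Analysis Console 4.0; how it summarized, corrected and normalized the arrays, and on which build, is not given in the sources used here. No further scaling was applied. Arrays give no read depth, and 3 per group limit the precision. Names come from the platform annotation and a RefSeq table (GRCm38.p6): 19572 probe sets have 1 symbol and 2634 none, and 55 symbols lie on more than 1 probe set.

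A mean per group was fitted to all 12 arrays with limma 3.58.1 in R 4.3.3 (lmFit, eBayes, prior degrees of freedom 3.37), and p-values were two-sided and adjusted by Benjamini-Hochberg over 22206 probe sets at 0.05. Errors are limma standard errors or standard deviations, and intervals are 95% intervals of the log2 difference. Named genes are those past the threshold, the next 20 each way by unadjusted p without overlap, the 10 largest differences each way with an unadjusted p under 0.01 and no overlap (predicted genes left out), and up to 4 members of each list by p. The comparison, the 29 pathway lists and the marker lists were chosen with earlier results of these data known; lists are described by counts and medians, with no test, and genes of a list without a probe set named here were not analysed here. Alternatives were a replicate block, array weights, quantile normalization, a robust fit with an intensity trend, median centring, a filter on the lowest 25%, the 6 arrays alone, symbols only, a muscle covariate (median of 24 marker genes), a fold rule and leaving out each array. Promoters are the 250 bases before RefSeq starts, read without a check against the files' build. Figures were drawn with Python 3.11.15 and matplotlib 3.10.9.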

Additional observations from a re-analysis of the deposited data

How the results depend on the processing

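The 12 calls at 24 h against control depended on the arrays and the model. There were 1118 with array weights (532 higher, 586 lower), 491 at an unadjusted p under 0.01 with a 2-fold change (192 higher, 299 lower) and 0 with the muscle covariate. Leaving out 1 array gave 0 to 253: 0 without either of HIFU_24h replicates 1 and 3 or of control replicates 1 and 2, 3 without HIFU_48h replicate 1 or HIFU_72h replicate 3, 6 without HIFU_48h replicate 3, 23 without HIFU_72h replicate 2, 31 without HIFU_24h replicate 2 and 253 without control replicate 3; the cause was not tested. With the replicate number as a block 3 remained, all among the 12. Deviations of same-numbered control and HIFU_24h arrays from their group means correlated with r = 0.004, 0.248 and -0.08. With 3 arrays a group these values cannot tell whether the numbers pair the samples, and the labels do not say. The 6 arrays alone (12, 9 of them shared), quantile normalization (8), median centring (15, of which 12 higher and 3 lower), the intensity trend (13), the filter (13) and symbols only (12) stayed within 1.5 times. For 24 against 48 h the fold rule gave 45, and other settings stayed at 0. For 24 against 72 h it gave 205, array weights 7, the muscle covariate 5, and leaving out 1 array 0 to 7 (7 without HIFU_48h replicate 3, 3 without HIFU_72h replicate 2, 1 without HIFU_72h replicate 3); these alternatives for the later times were added after seeing the data. Among single named genes 15 changed sign, all with the muscle covariate: Ccng1 to -0.73, Plk2 to -0.41, Xiap to -0.05, Bcl2 to 0.36, Ccpg1 to -0.05, Pdk2 to -0.32, Yars to 0.33, Aimp1 to 0.04, Dkc1 to 0.26, Ptgds to 0.03, Alox5 to -0.55, Igfbp7 to -0.27, Lef1 to 0.11, Itgb6 to -0.02 and Oat to -0.33. All 12 called genes kept their direction under each of their 21 alternatives; Lcn2, Pdk4 and Retreg1 passed the threshold in 16 of these.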
